A study of Mus musculus with 33 samples.

Results

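The expression of 9 genes used by osteoclasts was described across the 4 expression tables of the series: Acp5, Ctsk, Atp6v0d2, Car2, Itgb3, Nfatc1, Ocstamp, Oscar and Calcr. They were chosen by name, as the rows whose symbol equals a member, and all 9 were present among the 25965 genes listed for chondrocytes and the 27825 genes listed for each tongue table. The series compared mice in which the imprinted gene Zac1 (Plagl1, a zinc finger transcription factor normally active on the paternal allele) is expressed from both alleles, called biallelic here, with wild type mice. The biallelic mice carry a knockout that the labels name Zac1o; the labels name no strain background, sex or litter. Costal chondrocytes were taken from ribcages of E18.5 embryos (6 biallelic and 5 wild type animals), and whole tongues at E13.5, P0 and P20 (3 biallelic and 3 wild type tongues at each stage). The chondrocytes were sorted for Cd24a and Cd200 on the cell surface, a gate for prehypertrophic cells, and about 2000 cells were used per animal.

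Osteoclasts are giant cells that form by fusion of precursors of the monocyte and macrophage lineage and dissolve mineralised matrix, at the growth plate as well as in bone. The cytokine RANKL (Tnfsf11), acting on its receptor RANK (Tnfrsf11a) together with CSF1 and its receptor, induces the transcription factor NFATc1, which turns on the genes for fusion, attachment, acid secretion and matrix proteolysis. OPG (Tnfrsf11b) is the soluble decoy that blocks RANKL. Several of the 9 genes are also used outside osteoclasts: Acp5 and Ctsk by some macrophages and fibroblasts, Car2 by erythroid cells, Itgb3 by megakaryocytes and endothelium, Nfatc1 by valve endocardium and lymphocytes, and Calcr by quiescent muscle satellite cells of the mouse.

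On GRCm38, the files place Acp5 (ENSMUSG00000001348) at chr9:22126731-22135746 on the minus strand, Ctsk (ENSMUSG00000028111) at chr3:95499286-95509362 on the plus strand and Atp6v0d2 (ENSMUSG00000028238) at chr4:19876841-19922605 on the minus strand. Car2 (ENSMUSG00000027562) lies at chr3:14886426-14900769, plus strand, and Itgb3 (ENSMUSG00000020689) at chr11:104608000-104670476, plus strand. Ocstamp (ENSMUSG00000027670) lies at chr2:165393760-165400405, Oscar (ENSMUSG00000054594) at chr7:3609813-3616157 and Calcr (ENSMUSG00000023964) at chr6:3685677-3764713, all on the minus strand. Nfatc1 (ENSMUSG00000033016) completes the set; each value below is for a whole gene.

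RefSeq promoter windows (GRCm38.p6, 250 bases before to 50 after a start site) were found for 4 of the 9 genes. One window per gene is shown, because NFATc1 acts on osteoclast genes and these windows can be searched for its core motif, GGAAA on either strand, which stands in capitals (TTTCC is the same motif read on the other strand). For Acp5, Calcr and Oscar the start site of the window is the 5′ end of the gene in the files; Ctsk has a single window.
Acp5 (chr9:22135697-22135996, minus strand): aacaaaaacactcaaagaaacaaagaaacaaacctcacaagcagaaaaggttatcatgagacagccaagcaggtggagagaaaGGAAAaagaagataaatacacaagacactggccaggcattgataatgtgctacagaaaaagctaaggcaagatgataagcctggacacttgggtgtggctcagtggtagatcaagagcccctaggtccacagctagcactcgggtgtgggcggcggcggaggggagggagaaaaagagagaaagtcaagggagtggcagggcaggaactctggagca
Ctsk (chr3:95498960-95499259, plus strand): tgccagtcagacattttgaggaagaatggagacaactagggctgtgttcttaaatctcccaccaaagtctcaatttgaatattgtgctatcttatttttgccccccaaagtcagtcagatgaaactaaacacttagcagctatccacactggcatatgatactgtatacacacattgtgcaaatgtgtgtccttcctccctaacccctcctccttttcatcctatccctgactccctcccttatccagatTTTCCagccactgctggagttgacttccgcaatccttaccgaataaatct
Oscar (chr7:3616108-3616407, minus strand): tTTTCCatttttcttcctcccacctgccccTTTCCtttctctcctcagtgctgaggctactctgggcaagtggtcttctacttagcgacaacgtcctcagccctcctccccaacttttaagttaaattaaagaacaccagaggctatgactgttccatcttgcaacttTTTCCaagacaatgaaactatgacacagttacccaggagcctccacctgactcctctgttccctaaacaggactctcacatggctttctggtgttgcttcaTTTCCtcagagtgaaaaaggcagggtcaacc
Calcr (chr6:3764664-3764963, minus strand): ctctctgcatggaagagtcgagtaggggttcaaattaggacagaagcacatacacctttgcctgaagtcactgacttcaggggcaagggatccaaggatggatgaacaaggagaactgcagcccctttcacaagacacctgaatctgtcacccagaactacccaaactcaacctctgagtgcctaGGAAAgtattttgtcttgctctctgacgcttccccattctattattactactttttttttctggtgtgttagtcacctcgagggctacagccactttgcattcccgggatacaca
The NFAT core matched once in the Acp5, Ctsk and Calcr windows and 4 times in the Oscar window. It is a short motif that is present in 61.3% of the 32851 mouse promoter windows, so a match is a description of these letters and no more. The PU.1 core GAGGAA, present in 28.3% of all windows, matched 2 times each in the Ctsk and Oscar windows and not in the other two. The E-box CATGTG (14.2% of all windows), a type bound by MITF, matched among the 4 windows shown only in that of Oscar, once. The AP-1 motif TGANTCA (7.8%) matched in none of the 4. Acp5 and Calcr have other windows that are not shown. The Acp5 window at chr9:22130549-22130848 held 2 NFAT cores and 1 CATGTG, and that at chr9:22131816-22132115 held 1 NFAT core. The other Calcr window, chr6:3763574-3763873, held 0 matches of the NFAT core. Motifs were searched on both strands, and a GAGGAA followed by A overlaps the NFAT core. The genes with matches range from the most abundant member in the sorted cells (Acp5) to members with almost no reads there (Oscar and Calcr).

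The values are log2 RPM, where RPM is reads scaled to a fixed total per library and uncorrected for the length of a gene. Denominators ran from 7221013 to 15689559 reads in biallelic and 2938462 to 7887305 in wild type chondrocytes, and from 36832717 to 92249098 in the tongues. A count of 3 reads equals 0.191 to 1.02 RPM in chondrocytes and 0.0325 to 0.0814 RPM in tongues (counting error only). Plagl1 had a median of 24.6 RPM (lowest 17.5 RPM) in biallelic and 8.88 RPM (highest 15.3 RPM) in wild type chondrocytes, so the groups did not overlap for the targeted gene; in the tongues it did not overlap at any stage either. The sorted cells held chondrocyte collagen (Col2a1 at 245 to 760 RPM in biallelic and 154 to 433 RPM in wild type animals), but of the 7 prehypertrophic and hypertrophic markers Ihh, Pth1r, Col10a1 and Ibsp reached at most 1.74 RPM in any animal. That list summed to 1055 to 2333 RPM in biallelic and 832 to 2081 RPM in wild type animals, nearly all of it from Spp1 (1047 to 2324 RPM in biallelic and 824 to 2073 RPM in wild type animals), a gene that macrophages also express, while Runx2 and Ptch1 were at most 12.2 and 6.37 RPM. Macrophage markers were abundant: 12 of the 13 listed summed to 5127 to 6611 RPM in biallelic and 3893 to 5994 RPM in wild type animals. The chondrocyte markers summed to 346 to 942 RPM in biallelic and 199 to 569 RPM in wild type animals. Neutrophil markers summed to 729 to 1756 RPM in biallelic and 1462 to 2522 RPM in wild type animals, and wild type animals 7, 8 and 9 had the 3 highest sums (2522, 1923 and 2391 RPM). Earlier work on these data had already set those 3 animals apart, so the members' differences are also given without them.

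In the sorted chondrocytes, the secreted and lysosomal enzymes of the set were the best expressed members, and no member passed the test between genotypes. Acp5, the tartrate-resistant acid phosphatase by which osteoclasts are stained, ranged from 63.4 to 106.2 RPM around a median of 78.8 RPM in the 6 biallelic animals, against 51.1, 138.8, 36.8, 107.0 and 57.2 RPM in wild type animals 7 to 11. The biallelic values all lay inside the wild type range. The log2 fold change (biallelic minus wild type) was 0.23 ± 0.30 (SE, n = 6 and 5; limma, adjusted p = 0.744), with a 95% interval of -0.41 to 0.87; without wild type animals 7, 8 and 9 it was 0.05.

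Ctsk encodes cathepsin K, the cysteine protease that digests collagen in the resorption pit. It ranged from 15.1 to 57.9 RPM (median 23.2 RPM) in biallelic animals, against 7.27, 120.8, 42.8, 60.0 and 19.4 RPM in wild type animals 7 to 11. The highest and the lowest of the 11 values were both wild type, and they differed 16.6-fold. Between genotypes the log2 fold change was -0.34 ± 0.57 (SE; limma, adjusted p = 0.805), and it was 0.12 without wild type animal 8 and -0.36 without animals 7, 8 and 9.

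Atp6v0d2, the d2 subunit of the vacuolar proton pump and a factor in precursor fusion, was at 9.17 to 20.4 RPM in biallelic animals, against 12.2, 36.9, 31.8, 26.1 and 11.9 RPM in wild type animals. Wild type animals 8, 9 and 10 lay above every biallelic animal, and animals 7 and 11 lay among them. Its log2 fold change was -0.63 ± 0.34 (SE; limma, unadjusted p = 0.0806, adjusted p = 0.455), with a 95% interval of -1.35 to 0.09, and it was -0.35 without wild type animals 7, 8 and 9. The other enzyme of acid secretion, the carbonic anhydrase Car2, which supplies protons, was low: 0 to 3.06 RPM in biallelic and 0 to 3.40 RPM in wild type animals, with 1 animal of each genotype at 0 reads. The Car2 difference of -0.60 ± 0.99 (log2, SE; limma, adjusted p = 0.803) carried the widest interval of the tested members, -2.72 to 1.51, and was -1.34 without wild type animals 7, 8 and 9. It was -0.31 with 1 RPM added to every value and -0.27 under voom.

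Itgb3 showed the largest difference of the tested members. It encodes the β3 integrin chain that, paired with αv (Itgav), anchors osteoclasts to matrix, and, paired with αIIb (Itga2b), forms the platelet fibrinogen receptor. Biallelic animals 1 to 6 had 2.82, 2.42, 4.24, 3.96, 10.5 and 0.341 RPM, against 17.5, 59.6, 13.3, 5.07 and 4.42 RPM in wild type animals 7 to 11. Animals 7, 8 and 9 lay above all biallelic animals, while animals 10 and 11 fell below biallelic animal 5, so the groups overlapped. The log2 fold change was -2.20 ± 0.80 (SE, n = 6 and 5; 95% interval -3.92 to -0.49; limma, unadjusted p = 0.0155, adjusted p = 0.423), lower in biallelic but not past the threshold. Without wild type animals 7, 8 and 9 it was -0.80 (limma, adjusted p = 0.956). The 0.341 RPM of biallelic animal 6 stood for 3 reads. The log2 fold change of Itgb3 was -1.60 without that animal and -1.74 with 1 RPM added to every value.

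The partners of Itgb3 were not distributed alike. Itgav was at 156 to 206 RPM in biallelic and 120 to 180 RPM in wild type animals. Itga2b had 59.7 RPM in wild type animal 8, which also had the most Itgb3, and 13.8 RPM in biallelic animal 5, which had the most Itgb3 of its genotype. It was at most 2.55 RPM in each of the other 9 animals. The defining platelet glycoprotein genes Gp9, Gp1ba and Gp6 reached at most 3.97 RPM in any animal, while the megakaryocyte and platelet list as a whole summed to 253 to 816 RPM in biallelic and 415 to 566 RPM in wild type animals, most of it from Pf4 and Ppbp. The part of such cells in the Itgb3 values was not tested. In bulk RNA of this kind, fewer cells of a type and less RNA per cell cannot be told apart.

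Nfatc1, the transcription factor at the head of the osteoclast programme, was at 7.14 to 14.8 RPM (median 7.79 RPM) in biallelic animals, against 8.80, 26.1, 14.6, 12.05 and 4.08 RPM in wild type animals 7 to 11. Wild type animal 8 was again the highest, and animal 11 was the lowest of all 11. For Nfatc1 the log2 fold change was -0.30 ± 0.41 (SE; limma, adjusted p = 0.755); it was 0.36 without wild type animals 7, 8 and 9.

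The remaining 3 members had few or no reads in the sorted cells and were not tested, since they fell below 1 RPM in most animals. Ocstamp, a membrane protein needed for the fusion of osteoclast precursors, had at most 12 reads in any animal, and reads were found in 4 biallelic and 1 wild type animal. Oscar, the immunoglobulin-like receptor that co-stimulates osteoclast formation through the adaptor FcRγ, had 8 reads in all biallelic and 0 in all wild type animals, at most 2 in any one. Calcr, the calcitonin receptor of mature osteoclasts, had 5 reads in all biallelic and 0 in all wild type animals. The wild type libraries were mostly shallower, and a difference in these 3 genes was not detectable at this depth.

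**Figure D1:**
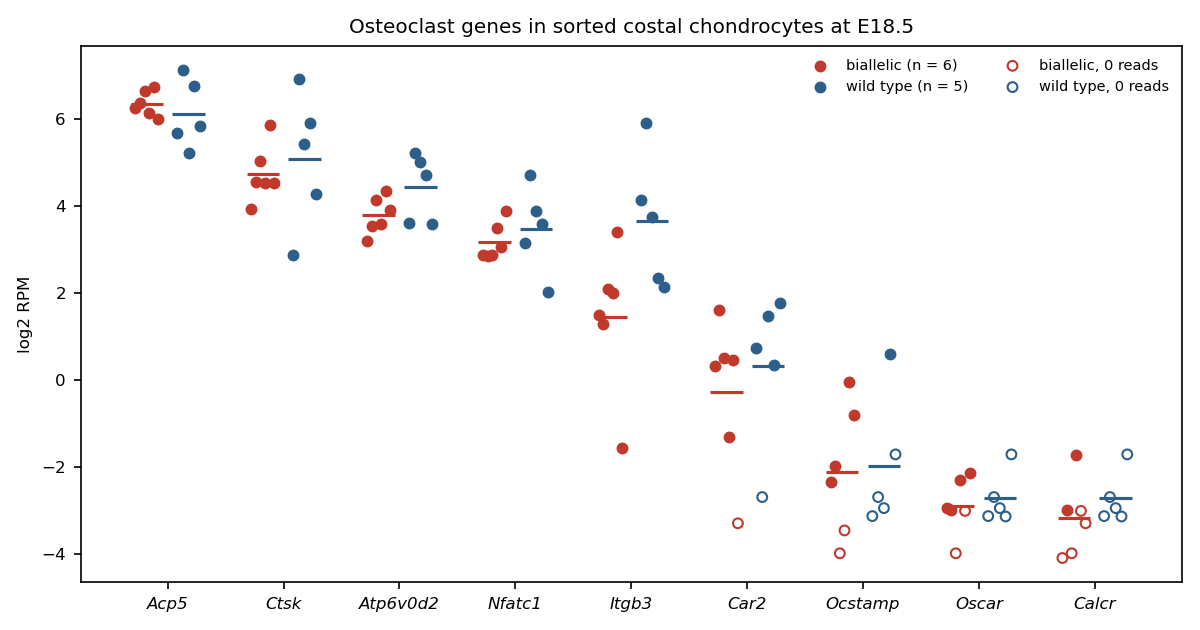
Log2 RPM of the 9 osteoclast genes (vertical axis) in costal chondrocytes of each E18.5 animal; filled points are animals with reads, open points are animals with 0 reads at the floor of the deposited values, and bars are group means. Acp5 lies at 36.8 to 138.8 RPM in all animals, Itgb3 has 3 wild type animals above all biallelic ones, and Ocstamp, Oscar and Calcr sit at or near the floor.

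Of the 9 members, 6 passed the filter on low values and 0 passed the threshold, where 0% of all 11127 tested genes did (limma, adjusted p under 0.05; voom also called 0). At an unadjusted p under 0.05, 1 member (Itgb3) was lower, and 7.71% of all tested genes were lower and 3.95% higher. The groups overlapped for every member, as they did for nearly all tested genes (0.719% did not overlap and were lower, 0.153% were higher). Mean values were lower in biallelic animals for 5 of the 6, where 59.2% of all tested genes had lower means, and the median log2 fold change was -0.47 for the 6 and -0.11 for all tested genes. Centring every library on its median gene moved that overall median by more than 0.1, to 0.117, without turning the direction of any of the 6.

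Adjusted for exon length (GENCODE M21 exons), the median level over the 11 animals was highest for Acp5 at 37.2 RPM per kb, then Ctsk at 15.4 and Atp6v0d2 at 5.53. Nfatc1 followed at 1.18 RPM per kb, Itgb3 at 0.750 and Car2 at 0.572, and Ocstamp, Oscar and Calcr had medians of 0. The ranges of neighbours in this order overlapped across animals; Acp5, for instance, ran from 18.1 to 68.4 RPM per kb and Ctsk from 4.81 to 79.9. Itgb3 spanned 0.058 to 10.1 RPM per kb.

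Wild type animal 8 had the highest value of 5 of the 6 tested members, Acp5, Ctsk, Atp6v0d2, Nfatc1 and Itgb3, and 0 reads of Car2. The 9 members together summed to 382 RPM in that animal, against 98.6 to 213 RPM in the other wild type and 111 to 206 RPM in the biallelic animals. In wild type animal 8, 55.45% of reads were in listed genes, the lowest share of all 11, where the biallelic animals had 60.38 to 65.43%. The macrophage sum of animal 8 (4321 RPM) was within the range of the wild type animals, its chondrocyte sum (199 RPM) was the lowest of all 11, and its erythroid sum (119 RPM) was the highest. The part of these other cells in the values was not tested.

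Across the 11 animals, with the genotype means removed, the members did not vary as 1 block. The correlation of each with the mean of the other tested members was 0.59 for Atp6v0d2, 0.51 for Ctsk and Itgb3 and 0.45 for Acp5, but 0.06 for Nfatc1 and -0.36 for Car2; these describe 11 points that share library depth and cell mixture. Without wild type animal 8 the values were 0.49, 0.42, 0.43, 0.29, -0.20 and 0.23 in the same order of genes (Atp6v0d2, Ctsk, Itgb3, Acp5, Nfatc1, Car2), and without wild type animals 7, 8 and 9 they were 0.41, 0.58, 0.70, 0.83, -0.35 and 0.20. Both of these were chosen after the data were seen, and the values for Acp5 and Car2 in particular rest on those animals. The genes whose pattern was most like the mean of the 6 tested members were Lysmd1 (r = 0.95), Alg13 and Rabepk (0.91), Ppp2r2d (0.89), Gprc5a, Ivd and Itga4 (0.88), Kdm3a (0.87), and Ranbp9 and Syne2 (0.86), over 11 animals and 8099 genes at 5 RPM or more. The median r over those genes was -0.03, and 34 of them exceeded 0.8. The mean of the 6 members was taken on unscaled log2 values, so members that vary more count for more in it. It includes Car2, which had 0 reads in biallelic animal 6 and wild type animal 8.

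**Figure D2:**
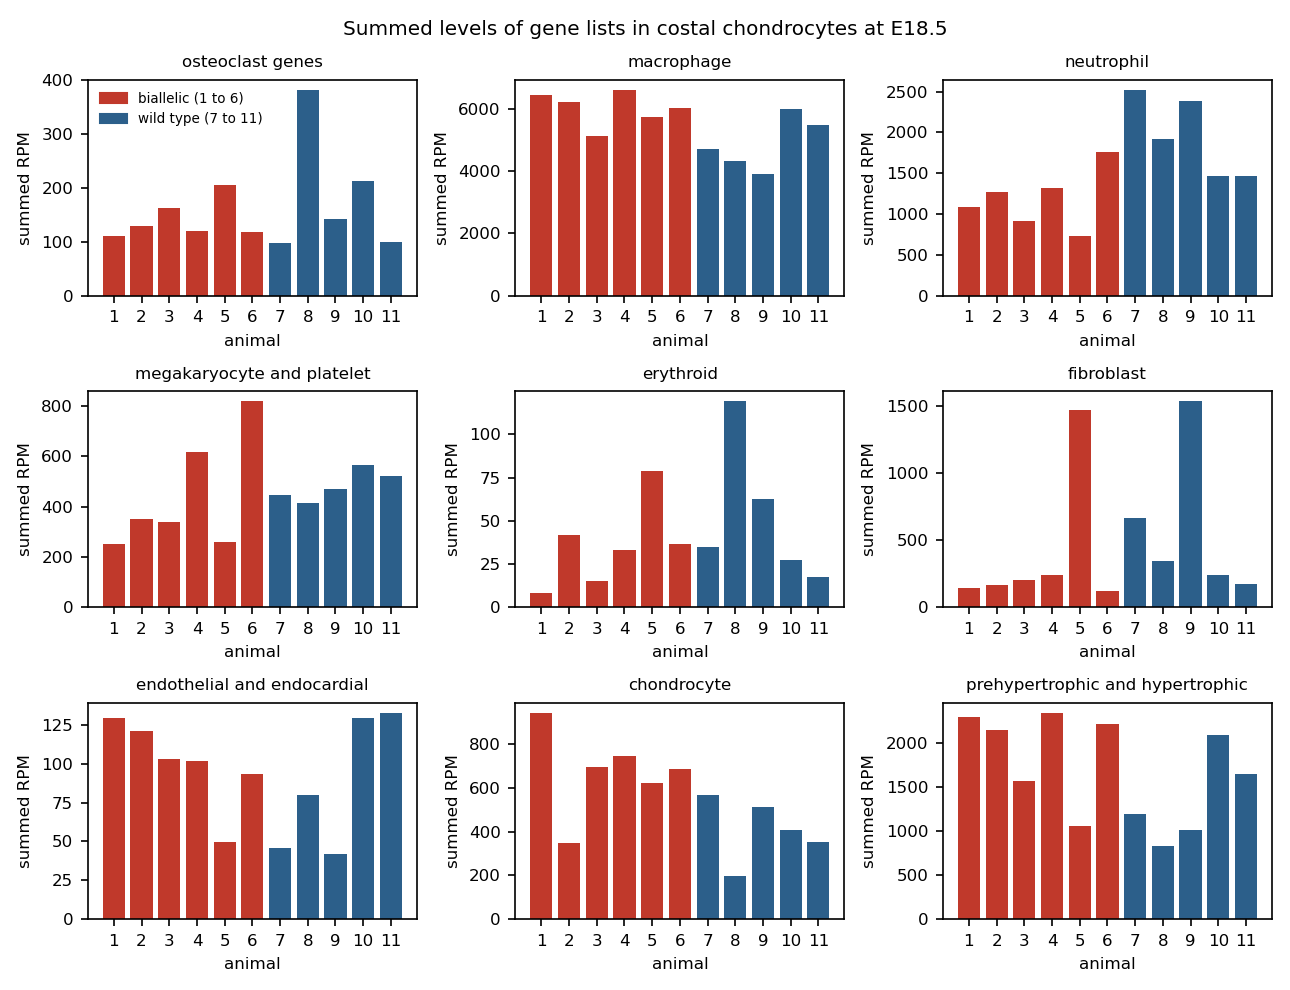
Summed RPM of the 9 osteoclast genes and of marker lists of other cell types (vertical axes) in costal chondrocytes of each animal (horizontal axes; biallelic animals 1 to 6, wild type animals 7 to 11). The osteoclast sum is highest in wild type animal 8 (382 RPM), macrophage markers sum to 3893 to 6611 RPM in all animals, and neutrophil markers are highest in wild type animals 7, 8 and 9.

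Other genes of the osteoclast pathway were taken from a list of 48, of which 47 were in the chondrocyte table and 37 were tested. None passed the threshold (0% of all tested genes did), 25 had higher and 12 lower means in biallelic animals, and their median log2 fold change was 0.15, where that of all tested genes was -0.11. Median centring gave 33 higher and 4 lower means. Without wild type animals 7, 8 and 9, a choice made for this list after the data were seen, 20 had higher and 17 lower means, with a median of 0.03. The ligand side was sparse. RANKL (Tnfsf11) was at most 0.434 RPM in any animal, and Il34, the second ligand of the CSF1 receptor, at most 2.94 RPM. Csf1 itself was at 5.92 to 24.4 RPM in biallelic and 10.2 to 29.2 RPM in wild type animals (log2 fold change -0.67 ± 0.37, SE; limma, adjusted p = 0.467). The decoy OPG (Tnfrsf11b) had a median of 0.759 RPM in biallelic and 0.634 RPM in wild type animals and reached 20.8 RPM in 1 wild type animal.

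Receptors and adaptors ranged widely in level, and 10 of the 12 listed were tested. Csf1r was at 550 to 861 RPM in biallelic and 291 to 598 RPM in wild type animals, a log2 difference of 0.51 ± 0.19 (SE; limma, unadjusted p = 0.0190, adjusted p = 0.423). Tnfrsf11a, the RANK receptor, was at 8.25 to 20.7 RPM in biallelic and 3.47 to 20.1 RPM in wild type animals. Fcer1g, the FcRγ adaptor of Oscar, was at 387 to 597 RPM in biallelic and 302 to 602 RPM in wild type animals, so the adaptor was present where the receptor had almost no reads. Calcr, too, had few reads where 2 of its 3 modifying proteins were present: Ramp1 was at 0 to 2.35 RPM in biallelic and 0 to 5.07 RPM in wild type animals and was not tested, Ramp2 was at 23.4 to 36.1 RPM in biallelic and 22.4 to 38.8 RPM in wild type animals, and Ramp3 at 5.35 to 57.3 RPM in biallelic and 6.13 to 51.1 RPM in wild type animals. Dcstamp, the fusion protein that works beside Ocstamp, was at most 1.25 RPM, and Siglec15, a receptor of maturing osteoclasts, had 0 reads in every animal.

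Among nuclear regulators, Fos, which acts with NFATc1, was at 783 to 1832 RPM in biallelic and 796 to 1278 RPM in wild type animals. Irf8, a repressor that holds precursors in the macrophage state, was at 126 to 156 RPM in biallelic and 95.6 to 161 RPM in wild type animals. Prdm1, which silences such repressors in mouse osteoclasts, was at 64.1 to 110.1 RPM in biallelic and 47.2 to 76.8 RPM in wild type animals. These 3 regulators overlapped between genotypes, and 7 of the 8 tested had higher means in biallelic animals, with a median log2 fold change of 0.20. Of all tested genes 59.2% had lower means, with a median of -0.11. The regulators were not counted separately without wild type animals 7, 8 and 9.

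For acid secretion, all 11 listed genes were tested, with 6 higher and 5 lower means in biallelic animals. Tcirg1, the a3 pump subunit of the ruffled border, was at 167 to 258 RPM in biallelic and 90.0 to 209 RPM in wild type animals (log2 fold change 0.65 ± 0.22, SE; limma, adjusted p = 0.423). Atp6v1c1, a subunit of the pump's cytoplasmic part, differed the other way, by -0.47 ± 0.17 (SE; adjusted p = 0.423), at 92.1 to 129 RPM in biallelic and 113 to 187 RPM in wild type animals. Atp6v0d1, the widely expressed counterpart of Atp6v0d2, was at 135 to 208 RPM in biallelic and 144 to 209 RPM in wild type animals. The d1 form thus had more reads than the d2 form in every animal.

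The gene of smallest p in the list was Mmp9, a gelatinase made by osteoclasts and by neutrophils. It was at 7.47 to 30.1 RPM (median 16.9 RPM) in biallelic animals, against 27.9 to 98.2 RPM (median 56.0 RPM) in wild type animals, with a slight overlap. Its log2 fold change was -1.86 ± 0.41 (SE; limma, unadjusted p = 0.000422, adjusted p = 0.423). By group means, neutrophil markers ran the same way: 9 of the 10 tested had lower means in biallelic animals. Their median log2 fold change was -3.76. At an unadjusted p under 0.05 (limma), 7 of the 10 were lower, where 7.71% of all tested genes were, and 0 passed the threshold. S100a8 was at 57.7 to 129 RPM in biallelic and 107 to 714 RPM in wild type animals. By animal the order differed. Mmp9 was at 27.9, 98.2, 56.0, 82.0 and 44.6 RPM in wild type animals 7 to 11. Their neutrophil sums were 2522, 1923, 2391, 1464 and 1462 RPM. Biallelic animal 6 had the highest neutrophil sum of its genotype, 1756 RPM, with Mmp9 at 8.30 RPM. S100a8 alone was at 600, 469, 714, 120 and 107 RPM in wild type animals 7 to 11, and at 100 RPM in biallelic animal 6. Most of each of these sums thus came from other genes of the list, so the sums need not follow each marker. The part of neutrophils in the Mmp9 value was not tested. Together with Csf1r, Tcirg1, Atp6v1c1 and Ptk2b (0.62 ± 0.26, SE; a kinase that acts downstream of the β3 integrin), Mmp9 was one of 5 of the 37 genes at an unadjusted p under 0.05, where 11.7% of all tested genes were; the 5 were named after their values were seen. Without wild type animals 7, 8 and 9 the differences were -1.97 for Mmp9, 0.15 for Csf1r, 0.16 for Tcirg1, -0.20 for Atp6v1c1 and 0.11 for Ptk2b (limma, adjusted p = 0.956 to 0.968).

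**Figure D3:**
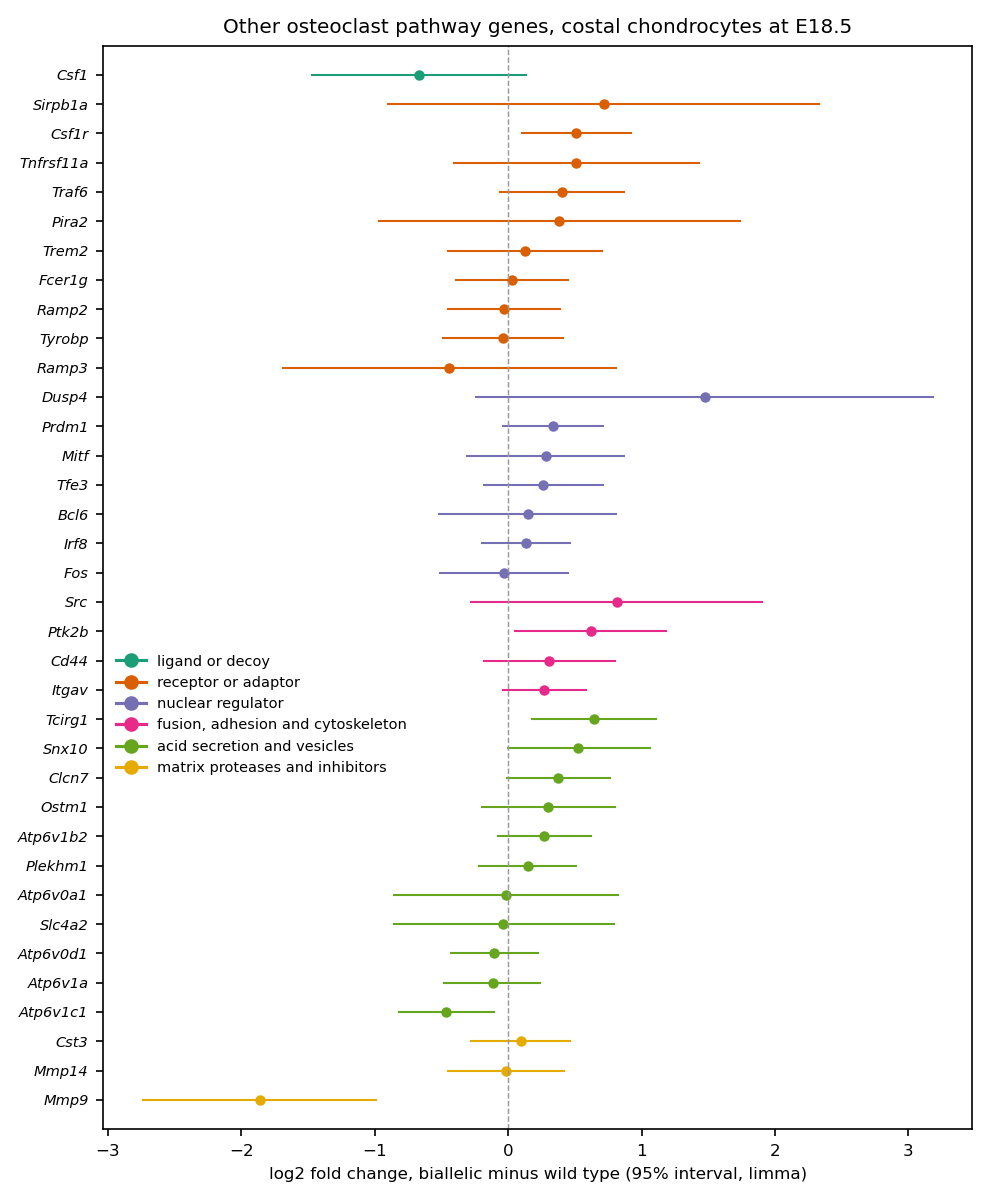
Log2 fold change, biallelic minus wild type, of the tested pathway genes outside the 9, with 1 of the 37 not drawn (horizontal axis; points are limma estimates, lines 95% intervals) in costal chondrocytes at E18.5, coloured by role. Mmp9 is the lowest at -1.86, most receptors and nuclear regulators lie above 0, and no gene passed the threshold.

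In the tongue, most members that led in the sorted cells were low. Tables were normalised per library and separately, and chondrocyte libraries were made from polyadenylated RNA and tongue libraries after rRNA removal, so levels are set side by side without a test. E13.5 RNA was also extracted with another kit than P0 and P20 RNA. Atp6v0d2 reached at most 0.622 RPM in any tongue, Ocstamp at most 0.393 RPM and Oscar at most 0.239 RPM, below the 1 RPM filter at every stage. Acp5 was at 0.162 to 1.17 RPM at E13.5, 0.554 to 1.03 RPM at P0 and 1.70 to 3.20 RPM at P20. Macrophage markers summed to 15.3 to 69.0 RPM over all tongues.

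Among the members at 1 RPM or more, Nfatc1 differed most in level between tongue stages. It was at 2.44 to 4.59 RPM at E13.5, 22.1 to 29.3 RPM at P0 and 37.0 to 53.7 RPM at P20, with no overlap between stages. Itgb3 was at 1.41 to 2.27 RPM at E13.5, 5.81 to 13.2 RPM at P0 and 7.05 to 8.86 RPM at P20, so that P0 and P20 overlapped and E13.5 lay below both. Calcr was at 0.085 to 0.645 RPM at E13.5, 1.10 to 3.12 RPM at P0 and 1.20 to 3.02 RPM at P20. Its level in the tongue after birth was thus above the highest value in the sorted chondrocytes, 0.305 RPM. Markers of endothelial and endocardial cells, which can express Nfatc1 and Itgb3, summed to 18.7 to 68.6 RPM at E13.5, 136 to 155 RPM at P0 and 163 to 313 RPM at P20; their part in these levels was not tested.

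Ctsk was lowest at P20 and did not overlap there with the earlier stages, at 5.21 to 7.68 RPM at E13.5, 7.22 to 8.90 RPM at P0 and 3.95 to 4.74 RPM at P20. Fibroblast markers, the list of a cell type that also uses Ctsk, summed to 637 to 1646 RPM at E13.5, 2354 to 2738 RPM at P0 and 1547 to 2513 RPM at P20. Car2 was at 0.970 to 12.3 RPM at E13.5, 1.06 to 1.69 RPM at P0 and 0.524 to 1.51 RPM at P20. The value of 12.3 RPM came from biallelic tongue 3 at E13.5, which had an erythroid sum of 75.2 RPM, where the other E13.5 tongues had 56.5 and 56.6 RPM (biallelic) and 49.7 to 86.0 RPM (wild type). That tongue also had the highest fibroblast (1646 RPM) and endothelial (68.6 RPM) sums of its stage. Per exon length, Ctsk led at E13.5 (median 4.58 RPM per kb) and P0 (5.11 RPM per kb), and Nfatc1 led at P20 (6.21 RPM per kb, against 2.98 for Ctsk).

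**Figure D4:**
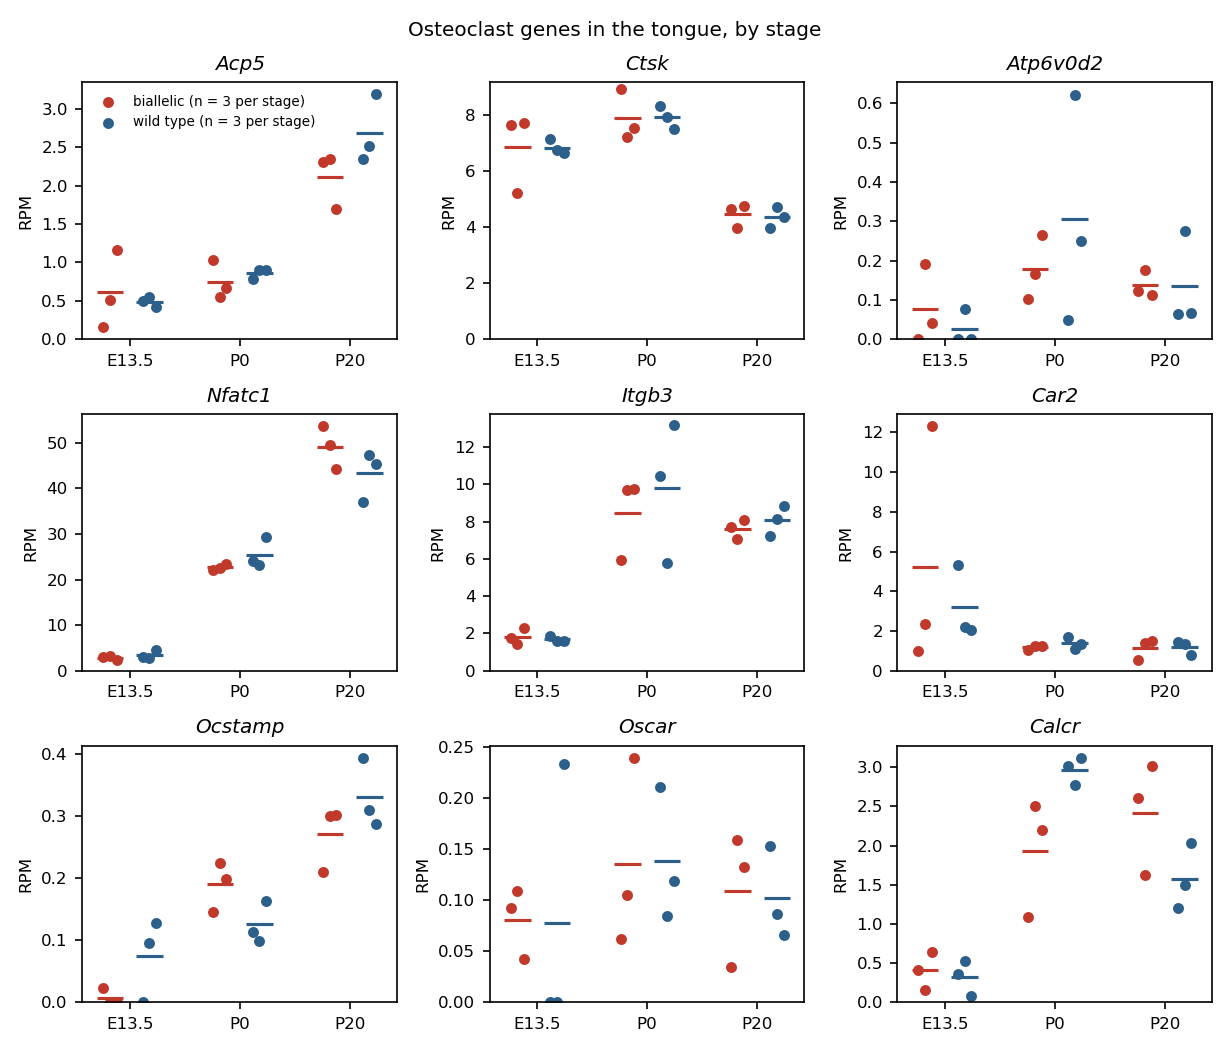
RPM of the 9 osteoclast genes (vertical axes, each with its own scale from 0) in tongues at E13.5, P0 and P20 (horizontal axes); points are tongues, 3 per genotype and stage, and bars are means. Nfatc1 lies at 2.44 to 4.59 RPM at E13.5 and at 37.0 to 53.7 RPM at P20, while Atp6v0d2, Ocstamp and Oscar stay below 1 RPM.

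Between genotypes, no member passed the threshold in any tongue table. The tests covered 4 members at E13.5, 5 at P0 and 6 at P20, and the share of all tested genes past the threshold was 0% of 11869 at E13.5, 0.016% of 12489 at P0 and 0% of 12693 at P20 (limma, adjusted p under 0.05; voom called 0 at each stage). At an unadjusted p under 0.05 these shares were 3.25%, 3.30% and 2.25%, and 0 members were among them. At E13.5 the log2 fold changes were -0.02 for Ctsk, -0.23 for Nfatc1, 0.07 for Car2 and 0.08 for Itgb3. For Nfatc1 the values were -0.16 ± 0.12 at P0 and 0.19 ± 0.13 at P20 (SE, n = 3 and 3; limma, adjusted p = 1 at both stages).

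Calcr came nearest to a difference. At P0 the biallelic tongues had 1.10, 2.50 and 2.19 RPM, against 3.02, 2.77 and 3.12 RPM in wild type tongues. All biallelic values lay below all wild type values, a pattern shared by 3.07% of the tested genes at that stage. The log2 fold change was -0.71 ± 0.30 (SE, n = 3 and 3; limma, unadjusted p = 0.0502, adjusted p = 1), and it was -0.34 without biallelic tongue 1. At P20 the biallelic tongues had 2.60, 1.63 and 3.02 RPM, against 1.20, 1.49 and 2.03 RPM in wild type tongues, a log2 difference of 0.61 ± 0.29 (SE; limma, adjusted p = 1). The groups overlapped at P20, and the difference between the stages was not tested. Myogenic progenitor markers summed to 128 to 147 RPM in biallelic and 100.5 to 122 RPM in wild type tongues at P0. That list is wider than the quiescent satellite cells that use Calcr, and it also holds Myf5 and Myod1. The part of such cells in the Calcr values was not tested.

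None of the 3 Ramp partner genes passed the threshold at P0 either: Ramp1 was at 25.6 to 31.5 RPM in biallelic and 21.4 to 27.8 RPM in wild type tongues at P0, Ramp2 at 18.7 to 20.1 RPM in biallelic and 16.8 to 19.4 RPM in wild type tongues, and Ramp3 at 1.13 to 1.61 RPM in biallelic and 0.943 to 1.17 RPM in wild type tongues. The Ramp3 difference was 0.35 ± 0.22 (log2, SE; limma, unadjusted p = 0.151, adjusted p = 1). For Acp5 at P20 the biallelic tongues had 2.31, 2.35 and 1.70 RPM, against 2.36, 2.52 and 3.20 RPM in wild type tongues. The groups did not overlap, by a margin of under 0.01 RPM, and 3.74% of the tested genes were lower without overlap at that stage. The difference was -0.35 ± 0.19 (log2, SE; limma, adjusted p = 1). The other pathway genes in the list gave 0 past the threshold among 28 tested at E13.5, 35 at P0 and 32 at P20.

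**Figure D5:**
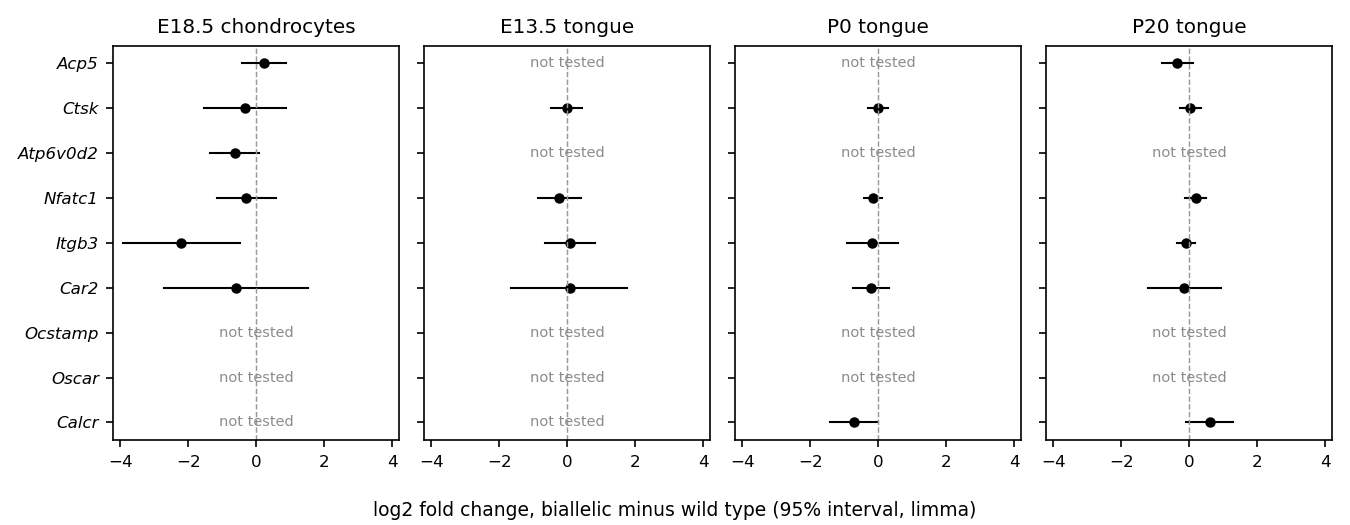
Log2 fold change, biallelic minus wild type (horizontal axes; points are limma estimates, lines 95% intervals), of each osteoclast gene in the 4 tables; members under the filter on low values are marked as not tested. The interval excludes 0 only for Itgb3 in chondrocytes (-3.92 to -0.49), which was not past the threshold after adjustment over all genes.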

How the data were processed

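The authors deposited 4 tables of log2 RPM per gene (reads scaled to the read total of each library, log2 scale), in which 0.9 reads stands for 0. Per the submitters' processing notes, reads were trimmed with Trim Galore 0.4.2 and aligned to GRCm38 with TopHat2 2.1.0 (tongues) or HISAT2 (chondrocytes); nothing in the labels or headers names the program that counted reads or whether it used strand, so genes that overlap or lie antisense are uncertain. Below 1000 reads, values were whole reads within 0.05. Tongue RNA (300 ng) was depleted of rRNA; chondrocyte libraries were SMART-seq2. For 4 chondrocyte animals, all biallelic, the labels give 2 libraries but a single column is present. Neither labels nor headers say how they were combined. The other biallelic animals and all wild type animals had a single library each, so any effect is partly mixed with genotype, and it was not tested. Each animal counted once, so the 33 labelled samples gave 29 columns; 3 other columns of values were not used. Replicates are biological per the labels.

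Testing used genes that reached 1 RPM in 3 of 6 tongue libraries or 5 of 11 chondrocyte animals, with limma 3.58.1 in R 4.3.3 (moderated test, mean-variance trend), biallelic minus wild type within each table, with Benjamini-Hochberg adjustment over all tested genes and a threshold of 0.05. The fit was tested on simulated data with large changes, in well expressed genes only, and with a fixed dispersion. That simulation therefore cannot tell how the fit performs for smaller changes, low genes or animals that vary more. The floor lies lower in deeper libraries. Most biallelic chondrocyte animals had the greater depth, which can make genes near the floor read lower in them. Where the values are whole reads, voom on those reads was an alternative; others were other filters, scalings, an added 1 RPM and leaving out each library. Within a table no 2 libraries were alike within sampling noise (the lowest chi-square per degree of freedom was 7.28).

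The 9 members, the marker lists and the pathway list were chosen with earlier results of these data known. The rule for named genes took the 9 members in every table, pathway genes past the threshold, and those that are a ligand, receptor or partner of a member; the regulators, pump subunits and genes at an unadjusted p under 0.05 that are named besides were chosen after their values were seen. A gene of the pathway list that stays in its counts is not reported here by name. Likeness was Pearson's r with genotype means removed.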

Additional observations from a re-analysis of the deposited data

How the results depend on the processing

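No member passed the threshold under any setting tried in any table, including other filters, scalings, voom, an added 1 RPM and each library left out (smallest adjusted p 0.128 in chondrocytes, for Itgb3 without the filter on low values, 0.914 at E13.5, 0.696 at P0 and 0.886 at P20). Directions held in 110 of 113 chondrocyte, 44 of 53 E13.5, 63 of 68 P0 and 76 of 80 P20 values. Apart from left-out single libraries, 3 settings turned a direction: Nfatc1 in chondrocytes was 0.36 without wild type animals 7, 8 and 9, and Ctsk at E13.5 was 0.045 under median centring and 0.0075 under voom. The cause was not tested.

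With 1 library left out, log2 fold changes in chondrocytes ranged from 0.0004 to 0.48 for Acp5, -0.90 to 0.12 for Ctsk, -0.84 to -0.44 for Atp6v0d2, -1.36 to -0.0033 for Car2, -2.59 to -1.60 for Itgb3 and -0.66 to 0.0089 for Nfatc1. At E13.5 they ranged from -0.94 to 0.89 for Car2, -0.11 to 0.17 for Ctsk, -0.093 to 0.25 for Itgb3 and -0.36 to 0.0014 for Nfatc1. At P0 they were -0.94 to -0.34 for Calcr, -0.099 to 0.052 for Ctsk and -0.51 to 0.084 for Itgb3, and at P20 -0.42 to 0.34 for Car2 and -0.029 to 0.12 for Ctsk.

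Genes past the threshold numbered 0 in chondrocytes, E13.5 and P20 tongues under every setting. At P0 there were 2 (Plagl1 and Phactr2, not members), and 1 under median centring or scaling to listed genes, and 0 without the filter, without the mean-variance trend or under voom; leaving out 1 library gave 0 to 4. In chondrocytes median centring turned the split of genes at an unadjusted p under 0.05 from 440 higher and 858 lower to 1001 higher and 391 lower.

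Tongues share replicate numbers across genotypes, but same-numbered tongues did not deviate together throughout (correlations from 0.04 to 0.16 in E13.5, from -0.49 to 0.36 in P0 and from -0.65 to -0.29 in P20 tongues). So few tongues cannot exclude pairs, and the numbers were not taken as pairs. With a replicate block the count at P0 was 0, and 0 at E13.5 and P20. Depth limits Ocstamp, Oscar and Calcr in chondrocytes, and Car2 there has 0 reads in 2 animals.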
